A study of Saccharomyces cerevisiae with 2 samples.

Results

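The 10 genes described here encode translation initiation factors of the budding yeast Saccharomyces cerevisiae, and were taken by their systematic names out of 6207 features on a 2-colour array. They are the cap-binding group CDC33 (YOL139C), TIF4631 (YGR162W), TIF1 (YKR059W) and TIF2 (YJL138C), the start-codon factor SUI1 (YNL244C), the eIF2 subunits SUI2 (YJR007W) and GCD11 (YER025W), and the eIF3 subunits RPG1 (YBR079C), PRT1 (YOR361C) and NIP1 (YMR309C). Of the 10, 7 had a value on both arrays, NIP1 had a value on array 2 only, and TIF4631 and PRT1 had none.

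All RNA came from a mid2 mutant of BY4741, a laboratory strain that is haploid and of mating type a, so both sides of every ratio lack Mid2, a membrane sensor of cell wall stress. Cells growing in rich medium (YEPD) at 24 °C were split, and one part received Congo Red, a dye that binds cell wall chitin and glucan, at 30 µg/ml. Untreated RNA and RNA after 4 h of Congo Red were hybridised together on each of 2 arrays: the RNA of treated cells was labelled with Cy3 on array 1 and with Cy5 on array 2. The comparison asks how transcript levels differ with wall stress in this mutant; no wild-type array was analysed here.

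Eukaryotic initiation factors (eIFs) bring the small ribosomal subunit to the start codon of an mRNA. The eIF4F complex binds the 5′ cap through eIF4E and unwinds the leader with the helicase eIF4A, eIF2 carries the initiator tRNA as a complex with GTP, eIF3 holds the pre-initiation complex together, and eIF1 guards the choice of the start codon. In yeast, the exchange of GDP for GTP on eIF2 by eIF2B is a main point of control under amino acid starvation, where the kinase Gcn2 phosphorylates eIF2 alpha and translation of the regulator Gcn4 increases. Arrays of total RNA measure the transcripts of these factors, not the proteins, their phosphorylation or translation itself.

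Each value is a deposited log2 ratio of the 2 channels of 1 array. Array 1 held 2832 values and array 2 held 3440, and 2738 features had both. Across those the columns correlated positively (Pearson r = 0.48, Spearman rho = 0.34, across genes, which are not independent replicates) although the dyes had been swapped. They were therefore read as already turned to treated over untreated, so that a positive value stands for more transcript with Congo Red; the labels do not settle this reading. The median mean ratio of all features was −0.24, with −0.27 on array 1 and −0.18 on array 2, so a gene at −0.24 lies at the middle of the array. The SD over these features was 0.96 on array 1 and 0.57 on array 2. A ratio of bulk RNA cannot tell fewer cells with a transcript from less transcript per cell. Among mating-type markers, 3 of 4 a-cell genes had values on both arrays: the pheromone genes MFA1 and MFA2, and STE2. The fourth, BAR1, had a value on array 2 only. The alpha-cell list had 1 of 3 genes with both values, and a ratio does not show whether a transcript was present.

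With the ratios as deposited, RPG1 and GCD11 stood highest among the initiation factors, each at about the same mean ratio, while SUI1 stood lowest and CDC33 and SUI2 lay near the median of all features. This order rests on the unsettled reading of the dye swap: with centred ratios read as never turned, RPG1 (0.13) and SUI1 (0.071) were highest and GCD11 was lowest (−0.68). That reading takes Cy5 over Cy3 on both arrays, so array 1 was turned. The channel order is not given, and with Cy3 over Cy5 every sign and the order under that reading would reverse. No member passed the test: limma called 0 of the 7, and 0% of the 2738 features, where p was adjusted by Benjamini-Hochberg with a threshold of 0.05. Adjusted p of the members ran from 0.325 (RPG1) to 0.798 (CDC33). At an unadjusted p under 0.05 limma gave 1 positive member, RPG1, and 0 negative ones, against 6.28% and 7.27% of all features. RPG1 was also the only member past a rule of size that asks for a 2-fold mean and, with equal signs, 1.5-fold on each of the arrays. Of all features, 4.13% passed that rule as positive and 2.81% as negative, the latter with 0 members. One gene of 7 gives no reading against such a share. The median of the 7 means was 0.13, which is 0.37 above the median of all features, at 0.62 above it on array 1 and 0.093 above it on array 2.

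**Figure D1:**
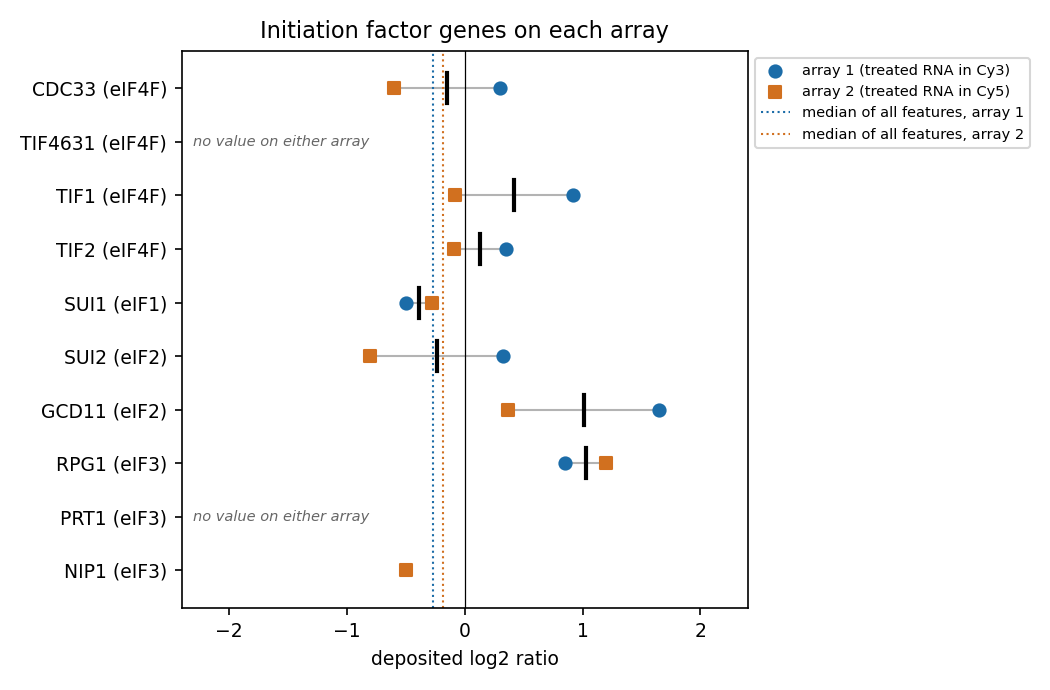
Deposited log2 ratio (x axis) of the 10 initiation factor genes on array 1 (circles) and array 2 (squares), with a black bar at the mean of both and dotted lines at the median of all features on each array. RPG1 and GCD11 are positive on both arrays, SUI1 is negative on both, and CDC33, TIF1, TIF2 and SUI2 are positive on array 1 and negative on array 2.

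In the cap-binding group the arrays disagreed in sign for every measured gene. CDC33, which encodes eIF4E, the protein that grips the cap, had 0.30 on array 1 and −0.60 on array 2. Its mean of −0.15 ± 0.63 (SD, n = 2) lay within the spread of the arrays, and centring each array on its median turned it to 0.073. On array 1 it ranked above 81.7% of the measured features, and on array 2 above 10.4%. TIF1 and TIF2 encode the same protein, the helicase eIF4A, from duplicated genes. TIF1 gave 0.92 on array 1 and −0.083 on array 2, a mean of 0.42 ± 0.71 (SD, n = 2). TIF2 gave 0.35 and −0.091, a mean of 0.13 ± 0.31 (SD, n = 2). Both eIF4A genes were slightly negative on array 2 as deposited but lay 0.10 and 0.093 above the median of that array. TIF4631, the gene of the scaffold eIF4G1 that ties eIF4E to eIF4A, went without a value on both arrays, and so did its paralogue TIF4632.

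The eIF4A pair also shows how far near-identical genes can lie apart on these arrays. TIF1 exceeded TIF2 by 0.57 on array 1 and by 0.0075 on array 2. The genes of 2 elongation factors are duplicated in the same way, each pair encoding 1 protein, and were picked for this purpose after their values had been seen. TEF1 exceeded TEF2 by 0.96 on array 1 and by 0.021 on array 2, and EFT2 exceeded EFT1 by 0.58 and 0.45. The 3 pairs thus differed by 0.57 to 0.96 on array 1 and by 0.0075 to 0.45 on array 2. Transcripts of such copies can hybridise to each other's spots, so TIF1 and TIF2 cannot be counted as independent genes.

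SUI1, encoding eIF1, which keeps scanning ribosomes from starting at wrong codons, was the only member below 0 on both arrays. It had −0.50 on array 1 and −0.28 on array 2, a mean of −0.39 ± 0.16 (SD, n = 2; 95% interval −1.07 to 0.29 in the limma fit). That places it 0.15 below the median of all features, a smaller distance than the interval's width on either side. Negative values on both arrays were found for 54.5% of all features.

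The subunits of eIF2 lay apart in the same order on both arrays. GCD11, the gene of eIF2 gamma, which binds GTP and the initiator tRNA, had 1.65 on array 1 and 0.37 on array 2. Its mean of 1.01 ± 0.91 (SD, n = 2) is 2.02-fold, but the value of array 2 alone fell short of 1.5-fold, and the 95% interval of the limma fit ran from −0.033 to 2.06 (adjusted p = 0.366). SUI2, the gene of eIF2 alpha, the subunit that Gcn2 phosphorylates, had 0.32 on array 1 and −0.80 on array 2. Its mean of −0.24 ± 0.79 (SD, n = 2) lay at the median of all features. On array 2, SUI2 ranked above 3.8% of the measured features, the lowest place of any member on either array. SUI3, the gene of eIF2 beta, which is not among the 10, fell between them with 0.71 and 0.12.

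GCD11 exceeded SUI2 by 1.33 on array 1 and by 1.17 on array 2, a difference of 1.25 ± 0.11 (SD, n = 2) that is larger than the spread between the arrays. Each gene alone differed more between the arrays, by 1.28 for GCD11 and by 1.12 for SUI2. The ratio of GCD11 was thus 2.38-fold that of SUI2. This pair was singled out after its values had been seen, and an exact sign-flip test over 2 arrays cannot give a p below 0.5. A difference between 2 genes of 1 array does not depend on how that array was centred. It does depend on the scale of each array, and the SD over features with both values was 0.96 on array 1 and 0.57 on array 2. The closeness of 1.33 and 1.17 therefore holds for unscaled arrays, and the SD of the difference was not computed on scaled ones. The difference also depends on the reading of the dye swap. Were the columns never turned, a difference of equal sign on both arrays would not be one between treated and untreated cells.

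Of the 3 eIF3 genes, RPG1 alone had a value on both arrays. RPG1 encodes eIF3a, the largest core subunit, on which the complex is built. It had 0.86 on array 1 and 1.20 on array 2, so that both arrays exceeded 1.5-fold. The mean was 1.03 ± 0.24 (SD, n = 2), or 2.04-fold, with a 95% interval from 0.33 to 1.73 (adjusted p = 0.325 with limma). RPG1 ranked above 90.8% of the measured features on array 1 and above 97.1% on array 2, and it was the only member whose value on array 2 exceeded 1.5-fold upward. NIP1, the gene of eIF3c, a partner of eIF1 and eIF5, pointed the other way on its single array, with −0.50 on array 2, above 23.3% of the 3440 values there. PRT1, the gene of eIF3b, had no value.

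The other eIF3 subunit genes with values on both arrays, which are not among the 10, lay below RPG1 on each array. HCR1, the gene of the loosely bound eIF3j, had 0.51 on array 1 and 0.17 on array 2. TIF35, the gene of eIF3g, had −0.22 and −0.14. TIF34, the gene of eIF3i, had −0.79 and −0.37, a mean of −0.58 ± 0.30 (SD, n = 2). RPG1 exceeded TIF34 by 1.64 on array 1 and by 1.56 on array 2, a difference of 1.60 ± 0.06 (SD, n = 2), and this gap too was picked out after it had been seen. Like that of GCD11 over SUI2, it depends on the scale of the arrays and on the reading of the dye swap. Any order shared by both arrays depends on that reading as well. All 6 pairs among the 4 eIF3 genes with both values kept their order on both arrays, as did the 3 pairs in eIF2 and the 3 in the cap-binding group. In the cap-binding group, TIF1 exceeded TIF2 by only 0.0075 on array 2, and TIF2 exceeded CDC33 by only 0.057 on array 1. TIF1 and TIF2 are also not independent genes. Pairs that share a gene are not independent, and over all pairs of measured features 61.6% kept their order.

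**Figure D2:**
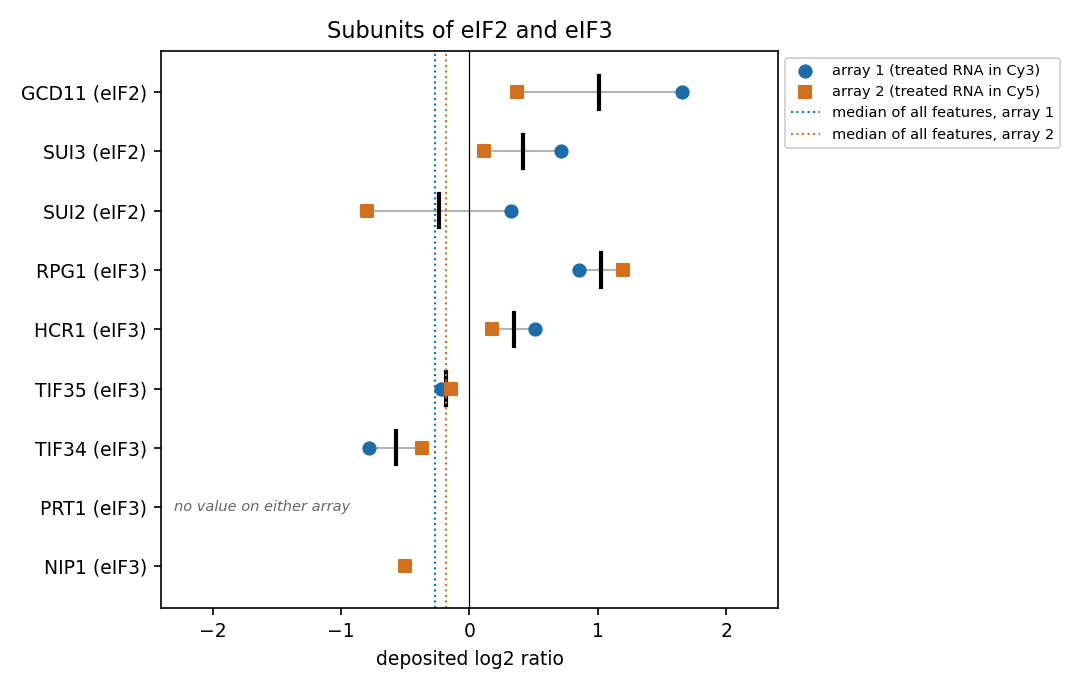
Deposited log2 ratio (x axis) of the subunit genes of eIF2 and eIF3 on array 1 (circles) and array 2 (squares), with a black bar at the mean of both and dotted lines at the array medians. Within eIF2 the order is GCD11, SUI3, SUI2 on both arrays, and RPG1 lies above HCR1, TIF35 and TIF34 on both. NIP1 has a value on array 2 only and PRT1 has none. CLU1, listed with eIF3, has no value on either array and is not shown.

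Ordered by deposited mean ratio from the highest, the members were RPG1, GCD11, TIF1, TIF2, CDC33, SUI2 and SUI1. Read as never turned, with Cy5 over Cy3, the order was RPG1, SUI1, TIF2, CDC33, TIF1, SUI2 and GCD11. Of the 6 steps between neighbours in the deposited order, only that from GCD11 to TIF1 (0.59 ± 0.20, SD, n = 2) was larger than the SD of its difference between the arrays. RPG1 and GCD11 exchanged places from one array to the other: GCD11 was higher by 0.80 on array 1 and RPG1 by 0.82 on array 2. Among the 21 pairs of members, 16 kept their order on both arrays, or 76.2%, beside the 61.6% of all features. These pairs share genes and are not independent. The widest difference of mean was that of RPG1 over SUI1, 1.41 ± 0.08 (SD, n = 2). It too depends on the scale of the arrays and on the reading of the dye swap. Read as never turned, RPG1 and SUI1 lay at 0.13 and 0.071.

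The arrays differed more for the members than for the array as a whole. The distance between a gene's values on array 1 and array 2 had a median of 0.90 over the 7 members and of 0.43 over all 2738 features. That median was 0.38 over the other initiation genes, 0.67 over elongation and termination genes and 0.32 over ribosomal protein genes. GCD11, SUI2, TIF1 and CDC33 had the widest gaps, from 0.90 to 1.28, each with the higher value on array 1. Opposite signs of the deposited ratios occurred in 4 of the 7 members and in 29.6% of all features. All 4 were positive on array 1 and negative on array 2, a pattern held by 14.2% of all features. They include TIF1 and TIF2, which are not independent genes. Relative to the median of each array, TIF1 and TIF2 lay above it on both, and only CDC33 and SUI2 lay on opposite sides. Array 1 gave the higher value for 5 of the 7 members, against 41.6% of all features. It also did so for 12 of 16 other initiation genes, 9 of 12 elongation and termination genes and 103 of 129 ribosomal protein genes. With each array centred on its median, array 1 was higher for 5 of the 7 members and for 1287 of the 2738 features. The part of dye, array or culture in this gap was not tested.

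**Figure D3:**
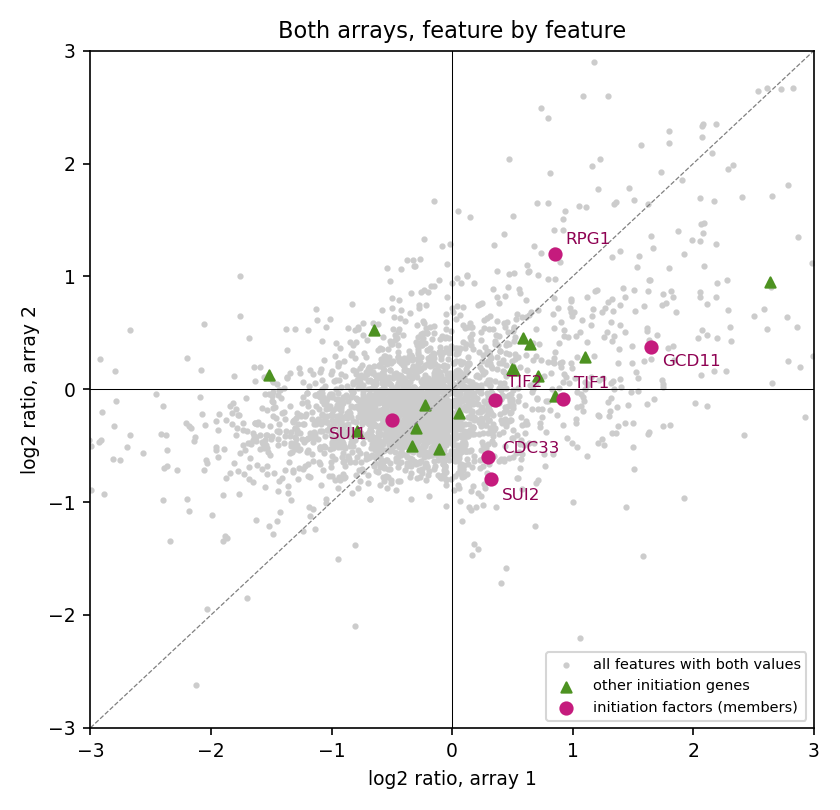
Log2 ratio on array 1 (x axis) against array 2 (y axis) for features with both values, with the members as labelled circles and other initiation genes as triangles; the dashed line marks equal values, and 49 features lie outside the axes. GCD11 and RPG1 are positive on both axes, and TIF1, TIF2, CDC33 and SUI2 are positive on array 1 and negative on array 2.

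Relative to the median of each array, 4 of the 7 members lay above it on both arrays (TIF1, TIF2, GCD11 and RPG1), against 29.3% of all features. TIF1 and TIF2 are not independent genes. This place was not particular to the members. It was shared by 9 of 16 other initiation genes, 10 of 12 elongation and termination genes and 42 of 129 ribosomal protein genes. SUI1 lay below on both, and CDC33 and SUI2 lay above on array 1 and below on array 2.

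Another 27 genes of initiation and its control were set as a list beside the members, of which 16 had values on both arrays. Limma called 0 of them at an adjusted p under 0.05, as it did of all features. It called 1 at an unadjusted p under 0.05, PAB1, which also was the only one to meet the rule of size. Of all features, 6.28% were positive at that unadjusted p and 4.13% met the rule as positive, so 1 gene of 16 gives no reading. Their median mean ratio was 0.14, or 0.38 above that of all features, close to the 0.37 of the members. PAB1 encodes the poly(A)-binding protein, which joins the tail of an mRNA to eIF4G, and it had 2.64 on array 1 and 0.95 on array 2, a mean of 1.79 ± 1.19 (SD, n = 2). Next came TIF6, encoding a factor that keeps the ribosomal subunits apart, at 0.69 ± 0.58 (SD, n = 2), and RLI1, encoding the ATPase of ribosome recycling, at 0.52 ± 0.17 (SD, n = 2). TIF5, the gene of eIF5, which triggers GTP hydrolysis on eIF2, gave 0.34 ± 0.22 (SD, n = 2).

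The 3 lowest means of that list were those of GCN1, TIF34 and GCN3, none of which passed either rule. GCN1, whose protein helps activate Gcn2, had −1.52 on array 1 and 0.12 on array 2. GCN3, the gene of the regulatory subunit of eIF2B, gave −0.42 ± 0.12 (SD, n = 2). GCN4, the transcriptional activator of amino acid synthesis genes, had −0.30 and −0.34, and its mean of −0.32 ± 0.03 (SD, n = 2) lay 0.077 below the median of all features. Gcn4 is controlled mainly at translation, so its transcript ratio says little of its protein. The kinase gene GCN2 had no value on either array.

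Elongation and termination factors had a higher median than the initiation factors in the ratios as deposited. Of 13 genes, 12 had both values, and their median mean ratio was 1.01, or 1.25 above all features. Read as never turned, that median lay at −0.15 relative to all features, beside −0.51 for the members, −0.19 for the other initiation genes and −0.19 for the ribosomal protein genes. Limma called 0 at an adjusted p under 0.05 and 7, all positive, at an unadjusted p under 0.05, where all features gave 6.28%. The rule of size took 6 of the 12 as positive, beside 4.13% of all features and 1 of 7 initiation members. These 6 include both copies of the TEF1 and TEF2 pair and of the EFT1 and EFT2 pair, which are not independent genes. EFT2 and EFT1, which encode elongation factor 2, were highest at 4.01 ± 0.85 and 3.49 ± 0.94 (SD, n = 2; adjusted p = 0.123 with limma for each). SUP35, a termination factor gene, and ANB1, a hypoxic copy of the eIF5A gene, were lowest at −0.18 ± 0.11 and −0.016 ± 0.25 (SD, n = 2). The highest initiation members, at about 1.03, thus lay near the median of the elongation group. The difference between the groups was not tested, as the genes of a group are not replicates. Ribosomal protein genes, 129 with both values, had a median of −0.18, 0.065 above that of all features, and 0 passed limma's adjusted or unadjusted threshold or the rule of size.

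**Figure D4:**
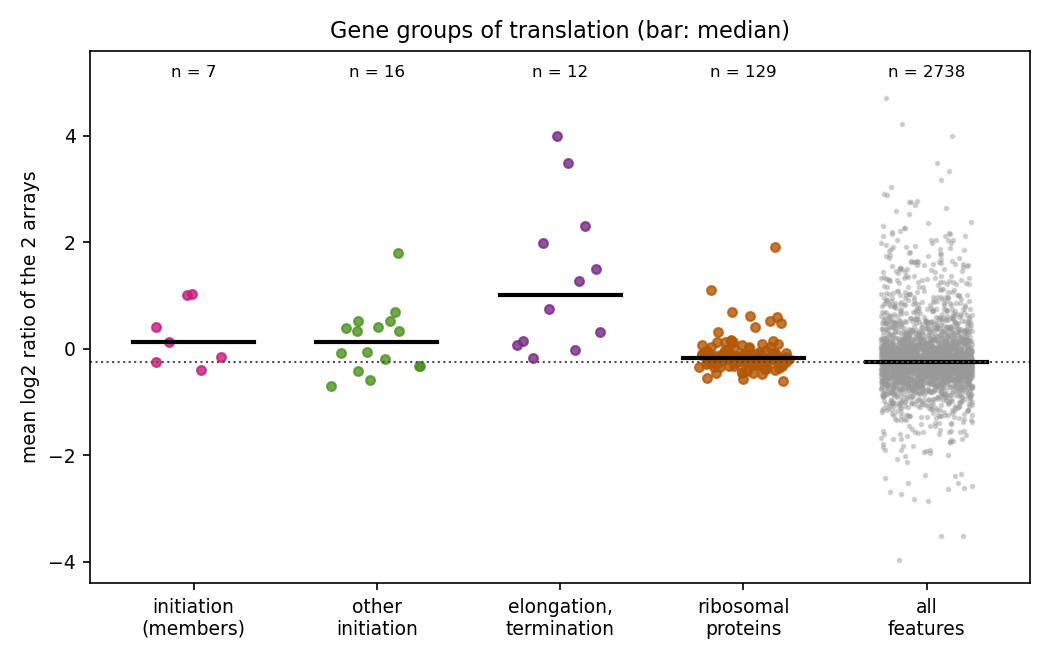
Mean log2 ratio of the 2 arrays (y axis) for each gene of the groups of translation and for all features, with a black bar at the median of each group and a dotted line at the median of all features. The members and the other initiation genes have medians of 0.13 and 0.14, the elongation and termination genes 1.01, and the ribosomal protein genes −0.18.

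The members with empty cells were long genes. TIF4631, PRT1 and NIP1 are 2859, 2292 and 2439 bp long in the R64 gene table. Among the 1872 matched features of 1659 bp or more, 33.3% had both values, against 61.4% of the 1885 features of up to 928 bp. RPG1, at 2895 bp the longest of the 10, was the only 1 of 4 members in the long class with both. It is therefore the only long member gene with a replicated ratio in these data, and why cells are empty is not given in the sources used here.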

How the data were processed

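Both arrays hybridised treated with untreated RNA of a mid2 mutant. The deposited table gives 1 log2 ratio per feature and array, with no intensities, so signal over background is unknown. The scale was inferred, since raising 2 to any of the 2832 and 3440 values gives a ratio of 4 decimals (relative tolerance 3e-09). The sources used here do not give the normalization, channel order, scanner or genome build. The labels describe 2 cultures and 4 arrays; 2 arrays were analysed here, and whether they hold separate cultures is not stated, so p-values measure only the spread between these arrays, which may be technical.

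Control features were left out. Mean ratios of the 2738 features with both values were set against 0 in R 4.3.3 by limma 3.58.1 (lmFit, eBayes; two-sided; threshold 0.05 on p adjusted by Benjamini-Hochberg over all of them), a fit first checked on simulated data. Gene names and lengths come from the RefSeq table of assembly R64, which matched 5654 features. Members and lists were chosen with earlier results of these data known. All members are named; of the other initiation genes, the 3 highest and 3 lowest means, GCN4, GCN2, PAB1, TIF4632, SUI3 and TIF5; of elongation and termination, the 2 highest and 2 lowest. Other names (TIF35, HCR1, TEF1, TEF2 and genes measured on 1 array) were added after the values were seen. Alternatives were centring, scaling, quantile normalization, ratios read as never turned, robust moderation, features with a value on either array, other limits and each array alone. Figures used matplotlib 3.10.9.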

Additional observations from a re-analysis of the deposited data

How the results depend on the processing

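No member, and none of the 2738 features, passed limma at an adjusted p under 0.05 with each array centred, with arrays scaled, with quantile normalization, with robust moderation or with features measured on either array, and the same was true of the ratios read as never turned. RPG1 was positive in all 8 alternatives as computed, from 0.13 to 1.31 in mean ratio. Robust moderation and the use of features with a value on either array cannot change the mean of a gene measured on both. Each array alone repeats a value given above, 0.86 on array 1 and 1.20 on array 2. The sign of RPG1 in those settings was therefore fixed in advance. The adjusted p of RPG1 with limma ran from 0.171 to 0.9997 in the 6 alternatives that allow a test. The lowest ratio came from the reading as never turned. Its sign there, like every sign under that reading, would reverse were the channel order opposite to the Cy5 over Cy3 taken. That reading, on centred arrays, reversed TIF1 to −0.54, TIF2 to −0.26, SUI1 to 0.071 and GCD11 to −0.68, and it moved the median of the members relative to all features from 0.37 to −0.51, with 0 members past the rule of size. Centring alone reversed CDC33 to 0.073. Scaling the arrays, or a limit of 1.5-fold on the mean with equal signs, took 2 members in place of 1, RPG1 with GCD11. At that looser limit 8.4% of all features passed on the positive side. With a single array, TIF1 ran from −0.083 to 0.92, TIF2 from −0.091 to 0.35, CDC33 from −0.60 to 0.30 and SUI2 from −0.80 to 0.32, the last 2 with array 1 on the positive side and the first 2 with array 2 on the negative side. The members' median lay 0.093 above all features with array 2 and 0.62 above them with array 1. With features measured on either array, the members' median lay 0.27 above all features. That setting added NIP1 from its single array and also changed the features behind the median of all features. Causes of these changes were not tested beyond the settings themselves. No paired analysis was possible because there is a single group and each ratio already compares both RNAs on 1 array. Having only 2 arrays limits precision throughout.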

Other observations

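Some initiation genes were measured on 1 array only and entered no comparison. Of eIF2B, the exchange factor of eIF2, the subunit genes GCD7, GCD2 and GCD1 had values on array 2 alone, of 0.60, 0.085 and −0.045, where the median of the 3440 values was −0.23. GCD7 ranked above 92.8% of the values of that array. CDC123, encoding an assembly factor of eIF2, had −1.71 on array 2, a value that 2.2% of the array's values reached or fell below. GCN20, encoding a partner of Gcn1, had −0.17 on array 2. DED1, encoding a helicase that helps ribosomes scan long leaders, had −0.31 on array 1 alone, where the median of all 2832 values was −0.28. GCD6, the gene of the catalytic subunit of eIF2B, had no value on either array. None of these values has a replicate.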
